A study of Homo sapiens with 6 samples.

Results

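The genes described here are the mitotic regulators, kinetochore and spindle genes of LN229 cells. They comprise every gene of the deposited table whose symbol is CENP followed by a single letter from A to W, 20 genes, and 37 named cyclins, kinases, checkpoint, kinetochore, spindle and proliferation genes. Together they are 57 of the 24480 gene symbols in the table. The rule names genes and holds no threshold on a value. LN229 is an established human glioblastoma line. The study compared 3 RNA-seq libraries of LN229 cells carrying an empty vector with 3 libraries of LN229 cells overexpressing LACTB, a serine beta-lactamase-like protein of the mitochondria. Vector and LACTB cells share the cell line, and the labels give no dose, time after gene delivery, clone or promoter. The labels number the replicates but do not state whether each is its own culture, so every p-value here reflects the variation among these libraries and that variation could be technical.

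Mitosis is driven by cyclin-dependent kinase 1 bound to cyclin A or cyclin B, and by the Aurora and Polo-like kinases. Chromosomes attach to spindle microtubules through kinetochores, which are built on centromeric chromatin, and the spindle assembly checkpoint holds back the anaphase-promoting complex until all chromosomes are attached. Most of these genes are transcribed late in the cell cycle under the DREAM and MYBL2-FOXM1 complexes, which makes their mRNAs markers of dividing cells in tumours. In bulk RNA, more cells in mitosis and more of an mRNA per cell cannot be told apart.

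The values are normalized read counts, and their columns sum to between 38049489 and 41384595 for vector and between 34907394 and 35683869 for LACTB. LACTB itself stood at 458, 515 and 393 normalized counts in vector libraries 1 to 3 and at 4268, 4078 and 4203 in LACTB libraries 1 to 3, as the labels say (log2 difference 3.21, SE 0.13, adjusted p = 2.9e-14). Of 10 glioma and astroglia markers 9 were measurable, with summed counts of 106009 to 113487 in the vector and 112347 to 113381 in the LACTB libraries, while AQP4 stayed at or under 8.38. Within that list 6 genes rose and 2 fell, from S100B, with 29009 to 39915 against 11989 to 15986, to SOX9, with 8.57 to 15.4 against 51.4 to 80.3. SOX9 reached the minimum mean for testing, 37.7 counts, only through its LACTB libraries. The immune markers PTPRC, AIF1 and CD3E never exceeded 14.6, and CD68, the only measurable gene of the 5 on that list, took its sum from 1051 to 1144 in the vector to 1601 to 1715 in the LACTB libraries. Neuronal markers summed to 1599 to 1672 and 1537 to 1727, and endothelial markers to 244 to 301 and 173 to 201. SYT1 of the neuronal list rose, with 83.3 to 143 in the vector and 339 to 436 in the LACTB libraries. KDR of the endothelial list, under the minimum for testing, had 57.6 to 79.8 against 1.55 to 11.5. The part of these markers in the results was not tested.

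Most mitotic genes that changed were higher in the LACTB-overexpressing cells. Of 56 members with enough counts to test, 30 rose, 3 fell and 23 did not pass the test. Of all 12939 tested genes 51.9% were called, 27.4% as higher and 24.6% as lower. The median log2 difference, LACTB minus vector, was 0.34 over the members (range -0.66 to 1.58) and 0.05 over all tested genes. The difference was computed on log2(normalized count + 1), and a gene was called at an adjusted p under 0.05. MKI67, CENPE, CENPF, ANLN, CENPC, CENPJ, BUB1 and ECT2 rose at least 2-fold, as 6.34% of all tested genes did. A further 8 members rose between 1.5 and 2-fold and 14 by less, and CDC25B, CENPB and CENPW fell, none of them 2-fold. The LACTB libraries lay entirely above the vector libraries in 31 members and entirely below in 3, against 31.1% and 28.7% of all tested genes. Of the 23 genes that were not called, 21 had a 95% confidence interval of the difference within 1.5-fold in either direction.

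**Figure D1:**
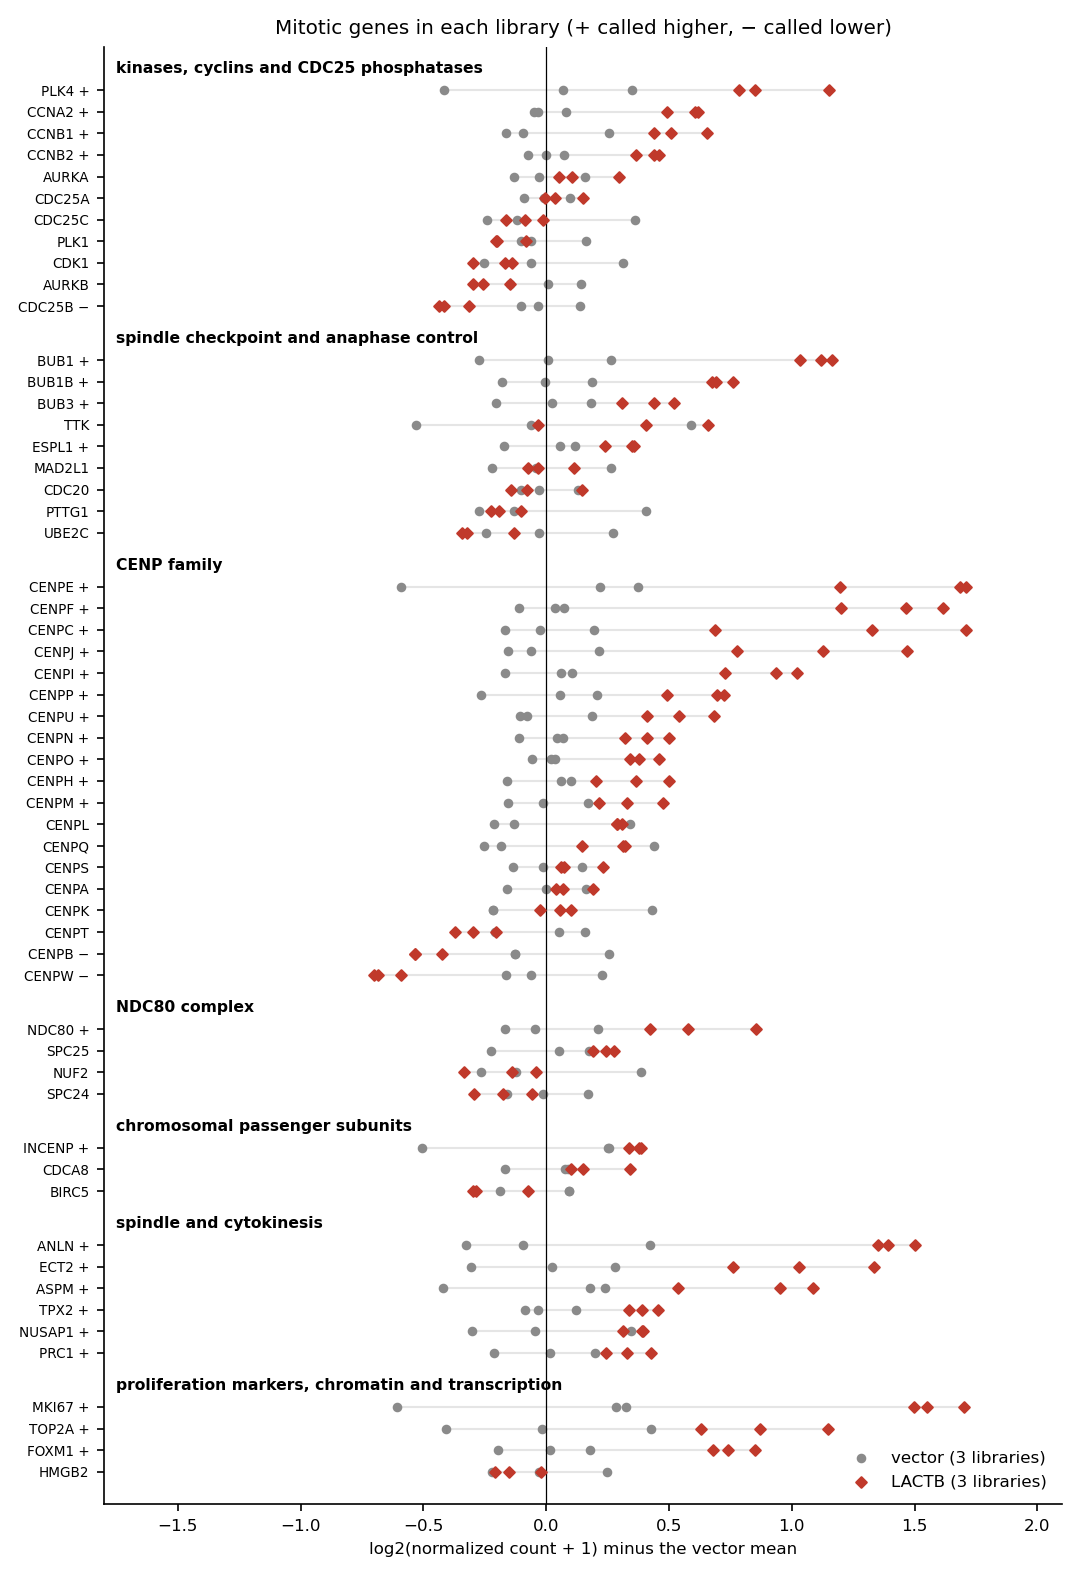
Each member in each library, as log2(normalized count + 1) minus the mean of the 3 vector libraries, with grey circles for vector, red diamonds for LACTB, and the genes grouped by role. In 31 of the 56 genes all 3 red diamonds lie to the right of all 3 grey circles, and in 3 genes they all lie to the left.

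As a share of all counts in the library, the 57 members took 0.533%, 0.526% and 0.525% with the vector, and 0.662%, 0.631% and 0.625% with LACTB. A share is the same whatever constant a column is multiplied by, and the groups did not overlap. The column totals that it is divided by were lower with LACTB. As deposited, the members summed to 220164, 200143 and 217108 in the vector and 236222, 220354 and 218887 in the LACTB libraries. Those sums overlapped between the groups. CENPV was left untested. It was listed at 4.19, 1.15 and 0.0263 normalized counts in the vector and 2.33, 7.74 and 14.7 in the LACTB libraries, under the minimum mean of 37.7 counts.

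The promoters of these genes share short motifs that had no part in choosing them. Of 57 members, 45 were found in a RefSeq table of promoters (GRCh38.p14), each a window of 300 bases around the annotated start. The letters TTTGAA or TTCGAA, searched on both strands, make up the core of the cell cycle genes homology region through which DREAM and MYBL2-FOXM1 act, and CCAAT, searched likewise, is the box bound by NF-Y. TTTGAA or TTCGAA was present in 27 of 45 member promoters, against 16.6% of all 27305 promoters in the table and 11.04% of the 9984 promoters of tested genes. CCAAT was present in 30 of 45, against 35.7% and 36.9%, and both motifs in 21 of 45, against 6.58% of all promoters. The homology region letters were in 18 of 24 promoters of members that rose, in 8 of 17 of members not called and in 1 of 3 of members that fell. For CCAAT the counts were 16 of 24, 13 of 17 and 1 of 3. A match is a match of letters only, and the windows of all genes were searched in the same way.

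Sequences of 6 member promoters are shown, each the 120 bases before the RefSeq start on the gene's own strand (GRCh38.p14). CCNB2, BUB1B, MKI67 and ANLN rose, and PLK1 and CDC20 were not called, so that the same letters can be seen on both sides. Capitals mark a match of either motif, read on either strand. The windows are chr15:59105026-59105145 (+) for CCNB2, chr15:40160949-40161068 (+) for BUB1B, chr10:128126424-128126543 (-) for MKI67, chr7:36389742-36389861 (+) for ANLN, chr16:23678769-23678888 (+) for PLK1 and chr1:43358861-43358980 (+) for CDC20.
CCNB2: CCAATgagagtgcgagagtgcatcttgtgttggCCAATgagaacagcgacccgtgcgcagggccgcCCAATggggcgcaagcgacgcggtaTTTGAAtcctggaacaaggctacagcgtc
BUB1B: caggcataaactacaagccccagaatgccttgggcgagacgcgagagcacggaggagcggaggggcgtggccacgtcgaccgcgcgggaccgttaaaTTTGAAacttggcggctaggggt
MKI67: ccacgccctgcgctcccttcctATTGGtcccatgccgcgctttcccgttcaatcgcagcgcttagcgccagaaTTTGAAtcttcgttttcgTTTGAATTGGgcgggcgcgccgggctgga
ANLN: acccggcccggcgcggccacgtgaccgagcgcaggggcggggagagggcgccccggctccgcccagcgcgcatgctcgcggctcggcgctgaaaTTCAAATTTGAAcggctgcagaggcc
PLK1: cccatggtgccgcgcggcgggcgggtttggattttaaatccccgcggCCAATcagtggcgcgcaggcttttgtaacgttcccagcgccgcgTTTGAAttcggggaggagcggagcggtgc
CDC20: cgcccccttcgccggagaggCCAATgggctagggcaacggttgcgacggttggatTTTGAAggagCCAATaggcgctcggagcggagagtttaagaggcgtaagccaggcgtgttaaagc
CCNB2 holds 1 homology region match below 3 CCAAT boxes, and MKI67 holds 2 of each motif, with the last pair overlapping. PLK1 and CDC20, whose values did not pass the test, carry 1 homology region match each, beside 1 and 2 CCAAT boxes.

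Among the kinases, cyclins and CDC25 phosphatases, 4 of 11 (36.4%) rose, 1 (9.1%) fell and the median log2 difference was 0.06. Over all tested genes 27.4% rose, 24.6% fell and the median was 0.05, so the group's median was near that of all genes. The mitotic cyclins rose together, while their catalytic partner and the Aurora and Polo-like kinases of mitosis proper were not called. CCNB1, cyclin B1 (chr5:69167010-69178245, GRCh38, as all gene positions here), was at 8964, 7024 and 6700 normalized counts in the vector and 11824, 10167 and 10670 in the LACTB libraries. Every LACTB library was above every vector library, with a log2 difference of 0.53 (SE 0.12, adjusted p = 0.00096). CCNB2, cyclin B2, stood at 2317, 2437 and 2198 against 3187, 2984 and 3142, without overlap (0.42, SE 0.11, adjusted p = 0.0028). CCNA2, cyclin A2, which acts from S phase into early mitosis, had 1465, 1587 and 1449 in the vector and 2110, 2280 and 2302 in the LACTB libraries. Its groups were well apart, at 0.57 (SE 0.11, adjusted p = 0.00027). PLK4, the kinase that starts centriole duplication, had the largest rise of the group. It was at 283, 166 and 233 in the vector and 401, 495 and 384 in the LACTB libraries, all 3 of which were higher (0.93, SE 0.20, adjusted p = 0.00049).

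CDK1, the kinase those cyclins activate, was named after its values were seen (chr10:60778331-60794852). It stood at 4257, 3281 and 2878 in the vector and 3045, 3113 and 2784 in the LACTB libraries. The groups overlapped, and the log2 difference of -0.20 had a 95% interval from -0.47 to 0.07 (adjusted p = 0.20). PLK1, which acts at centrosomes and kinetochores, had 8817, 8570 and 10285 against 8679, 7991 and 7996 (-0.16, interval -0.39 to 0.07, adjusted p = 0.23). AURKA, the Aurora kinase of the spindle poles, had 5255, 4615 and 4301 against 5786, 4885 and 5067 (0.15, interval -0.09 to 0.39, adjusted p = 0.28). Both kinases overlapped between the groups, and AURKA passed the test once the columns were scaled to equal totals (0.34) or by quantiles (0.31), or length and GC content were removed (0.25). AURKB, the kinase of the chromosomal passenger complex, was at -0.23 (adjusted p = 0.088), and CDC25A and CDC25C were at 0.06 and -0.09. CDC25B, the phosphatase that removes inhibitory phosphates from CDK1 at mitotic entry, fell (chr20:3786772-3806121). It was at 11832, 12429 and 13970 in the vector and 10234, 9535 and 9385 in the LACTB libraries. The groups did not overlap (-0.39, SE 0.11, adjusted p = 0.0060), but the call was lost with equal column totals (-0.20, adjusted p = 0.10), with quantile normalization (-0.21) and with length and GC content removed (-0.12).

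In spindle checkpoint and anaphase control, 4 of 9 genes (44.4%) rose, against 27.4% of all tested genes. None fell as deposited and the median was 0.32. BUB1, a checkpoint kinase that also phosphorylates histone H2A at centromeres (chr2:110637698-110678114), was at 1242, 1041 and 856 in the vector and 2116, 2318 and 2248 in the LACTB libraries. The lowest LACTB library stood well above the highest vector library. The mean count rose 2.13-fold (log2 difference 1.10, SE 0.13, adjusted p = 6.9e-07). BUB1B, the BubR1 subunit of the mitotic checkpoint complex, had 1495, 1307 and 1157 against 2095, 2225 and 2123, again without overlap (0.71, SE 0.12, adjusted p = 5.7e-05). BUB3, the partner that brings both to kinetochores, had 4330, 3883 and 3311 against 5170, 4734 and 5477 (0.42, SE 0.12, adjusted p = 0.0051). Its groups were apart as deposited, yet the difference was 0.29 (adjusted p = 0.058) after median centring and -0.10 with length and GC content removed. ESPL1, the protease separase that cuts cohesin at anaphase, had 4397, 5149 and 5376 against 6311, 5856 and 6358 (0.32, SE 0.11, adjusted p = 0.023). Its groups did not overlap, but the call was lost under median centring (0.18) and without any single LACTB library (0.29 to 0.35).

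CDC20, which activates the anaphase-promoting complex and is its checkpoint target (chr1:43358955-43363203), did not differ beyond its spread. It was at 11621, 11038 and 12964 in the vector and 13116, 10726 and 11225 in the LACTB libraries (-0.02, interval -0.27 to 0.22). UBE2C, the ubiquitin-conjugating enzyme of that complex, had 11314, 7898 and 9180 against 8544, 7386 and 7484 (-0.27, SE 0.13, adjusted p = 0.082). Both overlapped between the groups. MAD2L1, the checkpoint protein that binds CDC20, was named after its values were seen. Its 4491, 3635 and 3213 against 3658, 3556 and 4045 gave 0.0015, with an interval from -0.26 to 0.26. PTTG1, securin, the inhibitor of separase, was at -0.17, and TTK, the kinase that starts checkpoint signalling, at 0.34 (adjusted p = 0.23).

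Of the CENP genes, 11 of 19 tested rose, 2 fell and the median was 0.36. Among all tested genes 27.4% rose, 24.6% fell and the median was 0.05. CENPF, a large protein of the outer kinetochore and nuclear matrix (chr1:214603195-214664588), had the smallest adjusted p of the members. It was at 613, 628 and 553 in the vector and 1650, 1831 and 1372 in the LACTB libraries, more than doubling in each (log2 difference 1.43, SE 0.14, adjusted p = 2.9e-08). CENPE, the kinesin that moves chromosomes to the spindle equator (chr4:103105806-103198409), was low, at 68.0, 61.0 and 34.3 against 170, 173 and 121. All 3 LACTB libraries were above the vector ones (1.53, SE 0.28, adjusted p = 0.00011). CENPI, a subunit of the constitutive centromere network (chrX:101098218-101163681), had 323, 267 and 313 against 575, 610 and 497 (0.90, SE 0.16, adjusted p = 0.00010). CENPJ carries the CENP name but is a centriole protein (chr13:24882284-24922889). It had 134.1, 103.6 and 110.6 against 253, 321 and 198, with the groups apart (1.12, SE 0.22, adjusted p = 0.00021). The other 7 that rose were CENPC, which ties centromeric nucleosomes to the kinetochore (1.24), and CENPP (0.64), CENPU (0.55), CENPN (0.41), CENPO (0.39), CENPH (0.36) and CENPM (0.34) of the same inner network. CENPP lost its call after quantile normalization (adjusted p = 0.053) and with length and GC content removed (adjusted p = 0.10). After median centring CENPN, CENPO, CENPH and CENPM lost theirs, with adjusted p = 0.061, 0.076, 0.16 and 0.19.

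CENPW, a histone-fold subunit that pairs with CENPT (chr6:126340174-126348875), fell most of all members. It was at 1622, 1328 and 1237 in the vector and 853, 920 and 862 in the LACTB libraries, well apart (-0.66, SE 0.13, adjusted p = 0.00027). Its partner CENPT was at -0.29 (adjusted p = 0.077). CENPB, which binds the CENP-B box of alpha-satellite DNA (chr20:3783851-3786690), had 28056, 28071 and 36553 against 22830, 21191 and 21160. The groups did not overlap (-0.50, SE 0.12, adjusted p = 0.0018), but the fall was -0.15 (adjusted p = 0.22) after quantile normalization and -0.03 with length and GC content removed. CENPA, the centromeric histone H3 variant, had 1966, 1575 and 1759 against 2010, 1843 and 1810 (0.10, SE 0.12, adjusted p = 0.50). CENPL, a partner of CENPN, had 1464, 1055 and 995 against 1430, 1410 and 1410 (0.30, SE 0.14, adjusted p = 0.078). Both overlapped between the groups, as did CENPK (0.04), CENPQ (0.26) and CENPS (0.12).

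CENPB and CDC25B, which both fell, are neighbours read in opposite directions on chromosome 20. Their RefSeq starts leave 210 bases between them, chr20:3786741-3786950 on the + strand (GRCh38.p14), while GENCODE 29 begins CDC25B inside that stretch. The stretch is shown because it is the shared upstream region of 2 of the 3 members that fell, and it holds none of the motifs, so it has no capitals.
CENPB-CDC25B: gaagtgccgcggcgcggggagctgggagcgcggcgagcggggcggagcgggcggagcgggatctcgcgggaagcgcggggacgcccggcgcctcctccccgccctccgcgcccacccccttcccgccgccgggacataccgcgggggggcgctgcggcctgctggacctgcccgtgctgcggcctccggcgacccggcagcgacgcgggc
Of the 50 tested genes nearest to CENPB, 25 on each side, the median log2 difference was -0.17. Around CENPW it was 0.05, around CENPF 0.44 and around ECT2 0.66, the highest around any tested member. With length and GC content removed, the 4 medians were -0.06, -0.17, 0.17 and 0.21. These 4 are examples. Other members stood above the median of their neighbours, as MKI67 did (1.58 against 0.19), or below it, as CENPH did (0.36 against 0.42).

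In the NDC80 complex, which grips microtubule ends, 1 of 4 subunits rose, near the 27.4% of all tested genes. NDC80 itself (chr18:2571511-2616635) was at 388, 325 and 298 in the vector and 500, 606 and 449 in the LACTB libraries. The groups were apart (0.62, SE 0.17, adjusted p = 0.0041). NUF2, with which NDC80 forms a coiled-coil dimer, was named after its values were seen, with 845, 594 and 537 against 628, 586 and 512 (-0.17, SE 0.17, adjusted p = 0.40). SPC24 and SPC25 form the other dimer of the complex. SPC24 had 2666, 2413 and 3033 against 2583, 2380 and 2196 (-0.18, SE 0.12, adjusted p = 0.22), and its groups overlapped. SPC25 had 1853, 1706 and 1405 against 1990, 1875 and 1944 (0.24, SE 0.12, adjusted p = 0.11), which did not overlap but did not pass the test.

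Of the chromosomal passenger subunits that carry AURKB to centromeres and the midzone, 1 of 3 rose, again near that share. INCENP, the scaffold (chr11:62123973-62153163), was at 1902, 3220 and 3214 in the vector and 3527, 3416 and 3510 in the LACTB libraries (0.37, SE 0.15, adjusted p = 0.047). Vector library 1 stood apart from the other two, and without it the difference was 0.12 (adjusted p = 0.27). The call was also lost without any single LACTB library (0.36 to 0.38). BIRC5, survivin, among the most abundant members, had 28428, 23393 and 28375 against 25307, 21831 and 21651 (-0.22, SE 0.12, adjusted p = 0.13). CDCA8, borealin, had 3990, 3340 and 3961 against 4747, 4159 and 4019 (0.20, SE 0.12, adjusted p = 0.16). BIRC5 overlapped between the groups and CDCA8 did not, and CDCA8 passed the test with equal column totals (0.39), after quantile normalization (0.33) and with length and GC content removed (0.45).

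All 6 spindle and cytokinesis genes rose, against 27.4% of all tested genes. The group's median was 0.63, against 0.05 over all tested genes. ANLN, anillin, the scaffold of the contractile ring (chr7:36389806-36453791), was at 2031, 1417 and 1207 in the vector and 3977, 4287 and 3861 in the LACTB libraries. The lowest LACTB library was far above the highest vector library. The mean count rose 2.60-fold (log2 difference 1.41, SE 0.14, adjusted p = 8.6e-08). ECT2, the exchange factor that activates RhoA at the cleavage furrow (chr3:172750682-172821474), had 527, 441 and 350 against 885, 1094 and 734 (1.04, SE 0.17, adjusted p = 3.4e-05). ASPM, a spindle pole protein, had 363, 379 and 240 against 621, 682 and 465, without overlap (0.86, SE 0.19, adjusted p = 0.00071). With length and GC content removed, ASPM was at 0.18 (adjusted p = 0.30). TPX2, which activates AURKA on the spindle, had 8969, 9992 and 8651 against 12608, 11591 and 12046 (0.39, SE 0.11, adjusted p = 0.0049), also apart, and was at 0.26 (adjusted p = 0.081) after median centring. NUSAP1 (0.37) and PRC1 (0.33), which bundle microtubules, rose with adjusted p = 0.025 and 0.023, and neither passed after median centring. NUSAP1 was the only called member whose groups overlapped, since vector library 1 at 3680 exceeded LACTB library 3 at 3601.

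Of the proliferation markers, chromatin and transcription genes, 3 of 4 (75%) rose, against 27.4% of all tested genes. The group's median was 0.82, against 0.05 over all tested genes. MKI67, which coats mitotic chromosomes and is the Ki-67 antigen (chr10:128096659-128126385), was at 1837, 3507 and 3407 in the vector and 8201, 9100 and 7902 in the LACTB libraries. This 2.88-fold rise of the mean count was the largest of the members, also as a log2 difference (1.58, SE 0.19, adjusted p = 5.1e-06). Without the low vector library 1, however, the log2 difference was 1.28 (adjusted p = 2.9e-08), below CENPE (1.72), ANLN (1.63) and CENPF (1.45). FOXM1, the forkhead factor that drives late cell cycle genes (chr12:2857681-2877155), had 5301, 6151 and 6881 against 10950, 10156 and 9722, with the groups far apart (0.76, SE 0.12, adjusted p = 1.7e-05). TOP2A, the topoisomerase that untangles sister chromatids (chr17:40388516-40417950), had 2712, 1989 and 1518 against 3688, 4468 and 3121 (0.88, SE 0.17, adjusted p = 0.00020). HMGB2, a chromatin protein abundant in dividing cells, had 7934, 6546 and 5729 against 5776, 6012 and 6587, which overlapped (-0.13, SE 0.12, adjusted p = 0.40).

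A ratio of 2 genes within a library is the same whatever constant a column is multiplied by. For 6 pairs of partners, chosen after their values were seen because they differed, the exact two-sided permutation test gave p = 0.10 each, the smallest that 3 against 3 libraries allow, so these describe the chosen pairs only. Some related genes moved alike, such as the B-type cyclins CCNB1 (0.53) and CCNB2 (0.42). CCNB1 to CDK1 was 2.11, 2.14 and 2.33 in the vector and 3.88, 3.27 and 3.83 in the LACTB libraries. CCNA2 to CDK1 was 0.344, 0.484 and 0.504 against 0.693, 0.732 and 0.827. BUB1 to MAD2L1 was 0.277, 0.286 and 0.266 against 0.579, 0.652 and 0.556. In each of these 3 pairs the LACTB libraries were all higher. NDC80 to NUF2, the subunits of 1 dimer, was 0.459, 0.547 and 0.554 against 0.796, 1.03 and 0.878. INCENP to BIRC5 was 0.0669, 0.138 and 0.113 against 0.139, 0.156 and 0.162, a narrow gap. FOXM1 to MYBL2, a non-member that is its partner factor, had the widest, at 0.319, 0.392 and 0.354 against 0.919, 0.953 and 0.907.

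**Figure D2:**
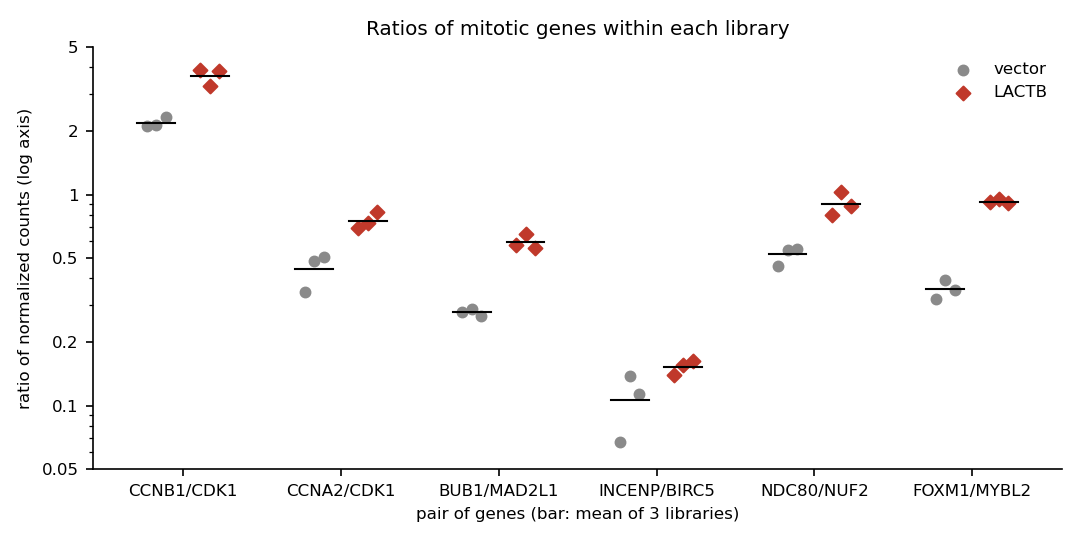
Ratios of normalized counts of 6 gene pairs in each library on a log axis, with grey circles for vector, red diamonds for LACTB and bars at the mean of 3 libraries. CCNB1 to CDK1 averaged 2.19 in the vector and 3.66 in the LACTB libraries, and in all 6 pairs the groups are apart.

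The differences of the members moved with transcript length. Length here is that of the longest transcript in GENCODE 29, with a median of 3623 bases over all tested genes and 2818.5 over the members. Of 21 members at or above 3623 bases 17 rose and none fell (median 0.71), while of 35 shorter members 13 rose and 3 fell (median 0.15). Among all tested genes with a length, 2646 of 6356 long genes rose and 943 fell (median 0.27), and 843 of 6354 short genes rose and 2168 fell (median -0.16). Across the 56 members, Spearman's rho between length and log2 difference was 0.61, against 0.41 across 12710 genes of the table. With GC content it was -0.41 and -0.45. These are correlations across genes of the same 6 libraries, which are not independent replicates.

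**Figure D3:**
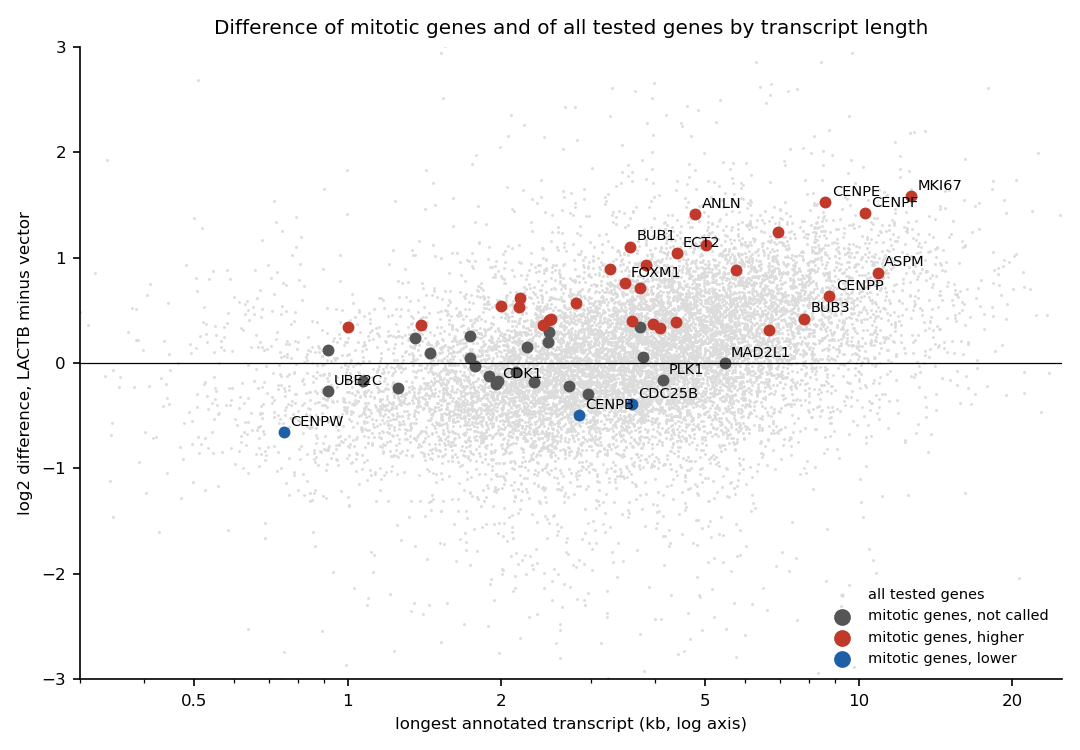
Log2 difference (LACTB minus vector) against the length of the longest annotated transcript in kb on a log axis, with all tested genes in pale grey and the members coloured by call. Not drawn are 98 genes that lie beyond 3 in either direction or outside the plotted range of lengths. Among members of at least 3623 bases 17 of 21 rose and none fell.

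When the part of each library's values that follows length and GC content was removed, 33 members (58.9%) rose and 4 (7.1%) fell. The members' median was 0.35. Of all genes tested there, 27.0% rose and 21.5% fell. MKI67 was then at 1.18, ANLN at 1.05, FOXM1 at 0.99, BUB1 at 0.91 and CENPF at 0.80, all still called. CDK1 (-0.31, adjusted p = 0.0032), MAD2L1 (-0.42, adjusted p = 0.0041) and NUF2 (-0.28) were called lower beside CENPW (-0.73). CDC20 (0.40, adjusted p = 0.0010) and AURKB (0.21, adjusted p = 0.027) were called higher. The scaling of the libraries moved the counts too. After centring each library on its median gene, 20 members (35.7%) rose and 9 (16.1%) fell, against 20.7% and 32.1% of all genes. Rises were then 39.3% of the calls over all genes, against 52.7% as deposited. With equal column totals, 35 members (62.5%) rose and 2 (3.6%) fell, against 38.5% and 14.7% of all genes. Rises were then 72.3% of the calls over all genes. The median of the members minus that of all tested genes was 0.30 as deposited, 0.36 after quantile normalization and 0.29 with length and GC content removed, while a constant per column leaves it nearly unchanged by construction. Of the 30 members that rose, 18 were called higher under every alternative that tested them, and CENPW alone of the 3 that fell was called lower under every one.

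**Figure D4:**
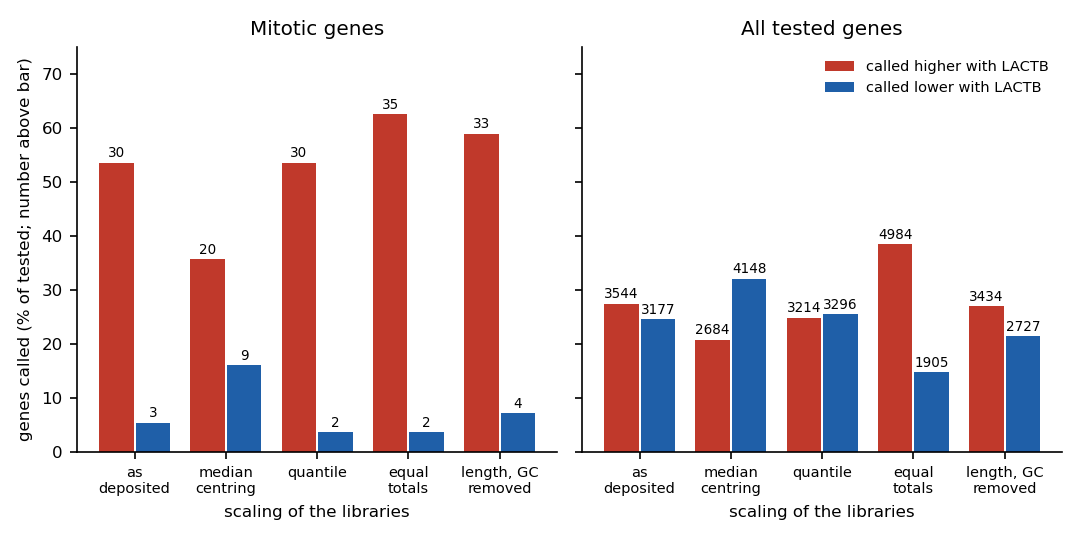
Percentage of the 56 members (left) and of all tested genes (right) called higher (red) or lower (blue) as deposited and under 4 other scalings, with the number of genes above each bar. The members called higher range from 20 after median centring to 35 with equal totals, and those called lower from 2 to 9.

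Per kb of longest transcript, the most abundant members in the vector libraries were CENPB at 10878 normalized counts per kb, UBE2C at 10355 and BIRC5 at 9861, and their ranges over libraries overlapped. CDC20 and PTTG1 followed at 6682 and 6516, also overlapping each other. CENPE and CENPC were lowest, at 6.32 and 6.28 per kb. Of the 28 more abundant members 10 rose and 3 fell (median difference 0.11), and of the 28 less abundant ones 20 rose and none fell (median 0.63). Because the level is divided by length, the less abundant members have longer transcripts in part by construction (median 3754 against 2281.5 bases), so this split partly repeats the one by length. The vector level that sets the split is also the level subtracted in the difference. The split was not made over all tested genes, so it cannot show a trait particular to the members. In the order of levels per kb, MKI67 went from place 43 in the vector to 32 in the LACTB libraries and ANLN from 40 to 27.

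Around the members, 112 of 115 further mitotic genes in 6 lists were testable, of which 58 (51.8%) rose and 11 (9.8%) fell (median 0.39). Over all tested genes 27.4% rose and 24.6% fell (median 0.05). In the outer kinetochore, SKA and RZZ list, 10 of 20 (50%) rose and none fell. KNL1, the scaffold that docks BUB1 and the NDC80 complex, was at 1.31, HJURP, the chaperone of CENPA, at 0.91, and SKA1, which couples kinetochores to microtubules, at 0.91. Of 17 cohesin and condensin genes 11 (64.7%) rose and none fell (median 0.66). With length and GC content removed 10 rose and 1 fell, where 27.0% of all genes rose and 21.5% fell. SMC4, the ATPase shared by both condensins, went from 495 ± 41.5 to 1516 ± 89.7 normalized counts (SD, n = 3; log2 difference 1.61, adjusted p = 3.1e-09), PDS5A, a cohesin regulator, was at 1.01, and NCAPG2, of condensin II, at 0.93. Of 24 centrosome and spindle assembly genes 16 (66.7%) rose and none fell. The counts were 14 and 1 with length and GC content removed. After median centring they were 13 and 1, where 20.7% of all genes rose and 32.1% fell. Genes of this list that rose included STIL, needed for centriole assembly (1.20), CKAP5, a microtubule polymerase (0.95), and SPAG5, astrin (0.92).

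In the anaphase-promoting complex 5 of 17 genes (29.4%) rose and 4 (23.5%) fell, close to the 27.4% and 24.6% of all tested genes. The counts were 3 and 6 after median centring, where 20.7% of all genes rose and 32.1% fell, and 6 and 2 with equal totals, where 38.5% rose and 14.7% fell. CDC27 was at 1.05 and ANAPC1 at 0.56, while the small subunits CDC26 and ANAPC11 were at -0.72 and -0.47. ANAPC1 (0.16) and ANAPC11 (-0.08) were not called with length and GC content removed. Of 17 kinases, phosphatases and other genes of mitotic entry and exit, 10 (58.8%) rose and 4 (23.5%) fell as deposited. The share of falls was near the 24.6% of all tested genes. The counts were 10 and 1 with equal totals, 7 and 4 after median centring, and 8 and 3 with length and GC content removed. The list median was 0.34 as deposited and 0.09 with length and GC content removed, against 0.05 and 0.06 over all tested genes. This list included GTSE1 (0.89), PBK (0.83) and NEK2 (0.66) above and ENSA (-0.46) and CKS2 (-0.43) below. CKS2 lost its call after quantile normalization (-0.26) and with equal totals (-0.24). Of 17 tested genes of the DREAM complex and CDK inhibitors, 6 (35.3%) rose and 3 (17.6%) fell as deposited, against 4 and 4 after median centring, also near the shares of all tested genes. LIN54, the DREAM subunit that binds the homology region, was at 1.33, and RB1, the retinoblastoma repressor, at 0.87. MYBL2, the activator that joins the same core, went from 17262 ± 1960 to 11097 ± 706 normalized counts (SD, n = 3; -0.63, adjusted p = 0.00011). E2F4, the repressor E2F of DREAM, was at -0.53, and at -0.18 (adjusted p = 0.080) with length and GC content removed.

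Some values may hold reads of another gene, since the strand setting of the counting is not given in the sources used here. In GENCODE 29 the exons of 17 members overlap those of another gene in the table: ANLN, CCNA2, CDC25C, CENPA, CENPL, CENPN, CENPO, CENPP, CENPS, CENPT, CENPU, CENPV, FOXM1, NUF2, PLK1, PRC1 and SPC24. Their own reads and those of the partner cannot be told apart there. Named pseudogenes exist for 11 members, AURKA, BUB1, BUB3, CCNB2, CDC20, CENPC, CENPI, CENPU, HMGB2, MKI67 and UBE2C, so that shared reads make their levels uncertain. Beside CENPB and CDC25B, CENPO (0.39) starts 33 bases from PTRHD1 on the opposite strand, which was at -0.44 (adjusted p = 0.046). CENPP (0.64) starts 117 bases from NOL8, which was at 0.51 (adjusted p = 0.037).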

How the data were processed

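RNA-seq of 6 LN229 libraries, 3 vector and 3 LACTB, was used. The deposited values are a signal per gene: normalized read counts that are not whole numbers. The aligner HISAT2 and the build hg38 are named per the submitters' processing notes. Which counter, annotation, strand setting and normalization were used is not given in the sources used here. No step size made the low values whole, with at most 58.5% within 0.05 for the best of many steps tried. The 10% expected by chance holds for 1 fixed step, so it is not a like comparison. No count model was used, and the depth in reads is unknown. Of 24489 rows, 9 symbols stood on more than 1, and the row with the higher mean was kept. Values under 1e-10 were set to 0, after which each vector library had 22538 rows above 0. The LACTB libraries had 20809, 20500 and 23061. Why the vector libraries share 1 number was not tested. Testing was limited to genes whose mean reached 37.7 normalized counts, which is 1 CPM of the average column, 12939 in all, on log2(value + 1) with limma 3.58.1 under R 4.3.3 (robust fit with an intensity trend, group as the only term, Benjamini-Hochberg adjustment over all tested genes, threshold 0.05). The script was tested on simulated data.

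Alternatives were other scalings, filters, pseudocounts, removal of length and GC content by splines, plain limma, a replicate block and leaving out each library. The members and lists were chosen with earlier results of these data known. In each role group, library values are given for up to 4 called members with the smallest adjusted p, every member called lower, and up to 2 uncalled members with the highest mean. In each further list, up to 3 members with the smallest adjusted p and up to 2 of the opposite direction are named.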

Additional observations from a re-analysis of the deposited data

How the results depend on the processing

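The number of members that rose stayed within 1.5 times the 30 found as deposited under all 16 alternatives (20 to 35), with 24 to 34 when 1 library was left out. Members called lower numbered 9 after median centring (adding CDK1, AURKB, UBE2C, CENPT, SPC24 and BIRC5) and 3 to 6 when 1 library was left out, the 6 without vector library 2. The members' median was 0.21 with each library centred on its median gene. Equal column totals made it 0.53, and 1905 genes of the table were then called lower. With the replicate block, 30 members rose and 3 fell, with 3673 and 3206 over all genes. Same-numbered libraries deviated together only weakly (r = 0.02, 0.18 and 0.0034), and not every library correlated best with its own number, so the numbers were not taken to pair libraries.

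The members whose sign changed were uncalled as deposited (between -0.29 and 0.12), except BUB3, which went from 0.42 to -0.10 with length and GC content removed; the cause was not tested. With length and GC content removed, AURKB was at 0.21, BIRC5 0.031, CDC20 0.40, CDC25C 0.072, CENPT 0.027, HMGB2 0.14, MAD2L1 -0.42, PLK1 0.029, PTTG1 0.13, SPC24 0.14 and UBE2C 0.057. With equal totals, CDC20 was at 0.17, CDC25C 0.11, HMGB2 0.065, NUF2 0.020, PLK1 0.030, PTTG1 0.020 and SPC24 0.015. After median centring, CDC25A was at -0.072, CENPA -0.033, CENPK -0.088, CENPS -0.011 and MAD2L1 -0.13. After quantile normalization, BIRC5 was at 0.13, CDC20 0.16, CENPK -0.16, CENPS -0.036, HMGB2 0.046, PLK1 0.037 and PTTG1 0.0087. Leaving out 1 library gave ranges of -0.21 to 0.094 for CDC25C, -0.063 to 0.26 for CENPK, -0.11 to 0.13 for MAD2L1, -0.30 to 0.022 for NUF2, -0.11 to 0.040 for CDC20 and -0.31 to 0.030 for PTTG1. Calls of CENPH, CENPM, INCENP, NUSAP1 and PRC1 were each lost under 5 or 6 alternatives. With 3 libraries a group and unknown depth, small differences in low genes such as CENPV were not resolvable.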
